A study of Mus musculus with 3 samples.

Results

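The cells described here are the IgM plasma cells of the mouse spleen, antibody-secreting cells whose heavy chain transcripts are mostly Ighm. They were picked by transcript counts alone. A barcode first had to hold at least 500 unique transcript counts (UMIs) and 200 genes with under 10% mitochondrial UMIs. It then needed at least 5 UMIs of Jchain, a UMI of at least 2 of the 5 genes Sdc1, Tnfrsf17, Derl3, Prdm1 and Txndc5, and at least 50% Ighm among heavy chain constant UMIs. The rule found 471 cells among 32509 barcodes, of which 197 came from the IR_HSO library, 236 from the IR library and 38 from the control library. All 3 libraries were made from suspensions of ground spleen of wild-type mice. The IR_HSO mice received 8.5 Gy of irradiation and HSO, which the series title names as hemp seed oil. The IR mice received 8.5 Gy and what the labels spell as a "colvent control". The control mice were not irradiated. The labels used here do not give the age or strain of the mice, the time after irradiation, the dose or route of HSO, or how many mice went into a library. With 1 library per group no difference has a replicate check, and no test between groups was possible. Intervals in brackets are exact 95% intervals and cover counting error only.

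Plasma cells form when an activated B cell shuts down its B cell program, expands its endoplasmic reticulum (ER) and turns most of its translation to secreted antibody. IgM is the first class made, before class switching, and it is secreted as multimers held together by the J chain, the product of Jchain. Resting B cells are among the cells most readily killed by ionizing radiation, whereas plasma cells are known to resist it better.

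The libraries held 45636807 UMIs over 12710 barcodes in IR_HSO, 50836313 over 13509 in IR and 47298108 over 9520 in control. The IR_HSO library stood apart in its mitochondrial share, with 16.5% of its barcodes at 10% mitochondrial UMIs or more, against 4.76% in IR and 3.75% in control. After the base filter 10585, 12854 and 9070 barcodes remained in IR_HSO, IR and control. Between 34 and 54 barcode sequences were shared by a pair of libraries, and no IgM plasma cell shared its barcode with an IgM plasma cell of another library. Levels are given as CPM, the UMIs of a gene per 1000000 UMIs summed over a library's IgM plasma cells, with immunoglobulin genes left out of the total and Jchain kept in it. T cells of the same library, set by at least 2 UMIs of Cd3d, Cd3e and Cd3g, are given beside them. For genes that T cells lack, they measure the RNA that any barcode can pick up. For other genes their level also holds the RNA of the T cells themselves.

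The label was checked on genes that the rule did not use. Xbp1, the transcription factor that drives the secretory program, stood at 1832, 1621 and 1701 CPM in IR_HSO, IR and control, against 45.7, 49.6 and 34.9 CPM in T cells. Irf4, another plasma cell factor, stood at 289, 180 and 158 CPM. All 10 plasma cell markers on the list, 7 of which the rule used, had UMIs in every library. The same held for T cells and class-switched plasma cells, so this count does not set the IgM plasma cells apart. The IgM plasma cells also carried UMIs of genes listed as markers of other cell types. The 9 T cell markers summed to 846 CPM in IR_HSO, 1125 in IR and 522 in control, where T cells themselves had 4523, 5554 and 5580 CPM. In all, 38 of 197, 57 of 236 and 5 of 38 IgM plasma cells held 2 or more Cd3 UMIs (19.3%, 24.2% and 13.2%). The 8 B cell markers summed to 1029, 1266 and 2005 CPM, and Pax5 and Fcer2a were at 0 in IR_HSO. Cd79a, which plasma cells retain, made up most of the B cell sum in IR_HSO and in IR. The 6 NK cell markers summed to 591, 1010 and 253 CPM. Monocyte, neutrophil and stromal markers summed to at most 45.7 CPM in any of the 3 libraries. Dendritic cell markers summed to 300.2, 307 and 424 CPM and red cell markers to 0.962, 0 and 115. Most of the dendritic cell sum came from Bst2, which class-switched plasma cells held at a higher level, as given below. The part of RNA from other cells in the results below was not tested, apart from repeating them without the Cd3-positive cells.

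At the edges of the rule, IgM plasma cells with 5 to 9 Jchain UMIs numbered 4 in IR_HSO, 8 in IR and 2 in control, and 55, 40 and 13 barcodes failed only because they held 1 to 4. Exactly 2 of the 5 genes were found in 57, 49 and 5 of the cells kept, and 70, 27 and 6 barcodes failed because they showed 1. The barcodes just outside had a median of 47.5, 29 and 15.5 Jchain UMIs, against 88, 119 and 83 in the cells just inside. Their immunoglobulin share had a median of 54.1%, 21.6% and 2.07%, against 54.6%, 49.6% and 27.1% just inside, so in IR_HSO the barcodes left out were as rich in immunoglobulin as those kept. The split by heavy chain was clean, as Ighm made up at least 90% of heavy constant UMIs in 196 of 197, 235 of 236 and 38 of 38 IgM plasma cells.

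IgM plasma cells made up a larger share of both irradiated spleens than of the control spleen. They were 1.86% of barcodes in IR_HSO [1.61, 2.14], 1.84% in IR [1.61, 2.08] and 0.419% in control [0.297, 0.575]. The IR_HSO share was 4.44 times the control share and the IR share 4.38 times, while IR_HSO and IR differed by a ratio of 1.01. That last ratio depends on the rule, which left out 70 IR_HSO and 27 IR barcodes for showing 1 of its 5 genes. It also depends on the mitochondrial filter, since 16.5% of IR_HSO barcodes and 4.76% of IR barcodes failed it. Of barcodes that otherwise met the rule, the filter left out 2 in IR_HSO and 5 in IR. Class-switched plasma cells, found by the same rule with Ighm under 50%, made up 0.926%, 0.708% and 0.265%, with ratios to control of 3.5 in IR_HSO and 2.68 in IR. IgM cells were 66.8% [61.1, 72.1], 72.2% [67.0, 77.0] and 61.3% [48.1, 73.4] of all plasma cells, and these 3 intervals overlap. A share depends on the other cells in the suspension, and more plasma cells cannot be told apart from fewer cells of other types. T cells were themselves 65.0%, 63.0% and 41.0% of barcodes in IR_HSO, IR and control. Counted per 100 T cells, there were 2.87 IgM plasma cells in IR_HSO, 2.92 in IR and 1.02 in control, so that the IR ratio to control was 2.85 on this scale. With cells of 2 or more Cd3 UMIs left out, the shares were 1.5% in IR_HSO, 1.39% in IR and 0.364% in control.

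**Figure D1:**
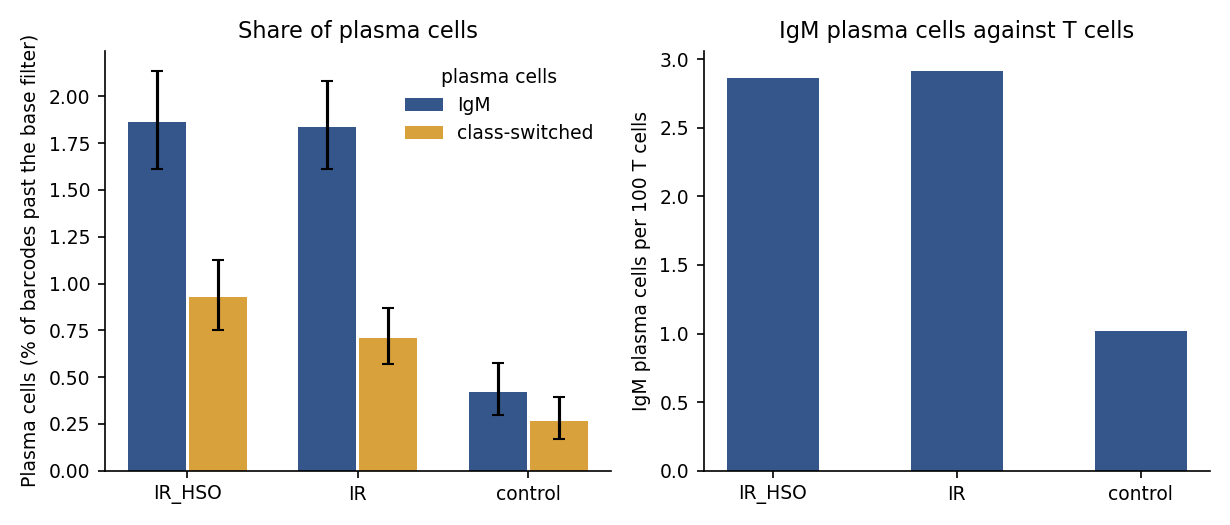
Left, IgM and class-switched plasma cells as a percentage of barcodes past the base filter in the IR_HSO, IR and control libraries, with exact 95% intervals of counting error as bars. Right, IgM plasma cells per 100 T cells, at 2.87, 2.92 and 1.02.

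Immunoglobulin transcripts took a larger share of the IgM plasma cells of the irradiated spleens. Immunoglobulin genes held 52.9% of the UMIs in IR_HSO, 53.9% in IR and 43.5% in control, against at most 0.268% in T cells of any library. Single cells spread widely, with a lowest, median and highest share of 2.20%, 54.8% and 76.2% in IR_HSO, 1.07%, 56.5% and 74.4% in IR, and 1.19%, 48.2% and 70.0% in control. The 3 libraries thus overlapped over nearly their whole range. Ighm alone took 15.8%, 12.0% and 10.6% of UMIs, and Igkc, the kappa light chain constant gene, took 31.7%, 35.1% and 31.4%. Jchain, which the rule used, took 2.64%, 3.60% and 3.59%. The cells themselves differed in depth, with a median of 4160 UMIs outside the immunoglobulin genes in IR_HSO, 5606 in IR and 9320 in control. Median Jchain UMIs per cell were 180, 364.5 and 606, in the same order as the depth.

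**Figure D2:**
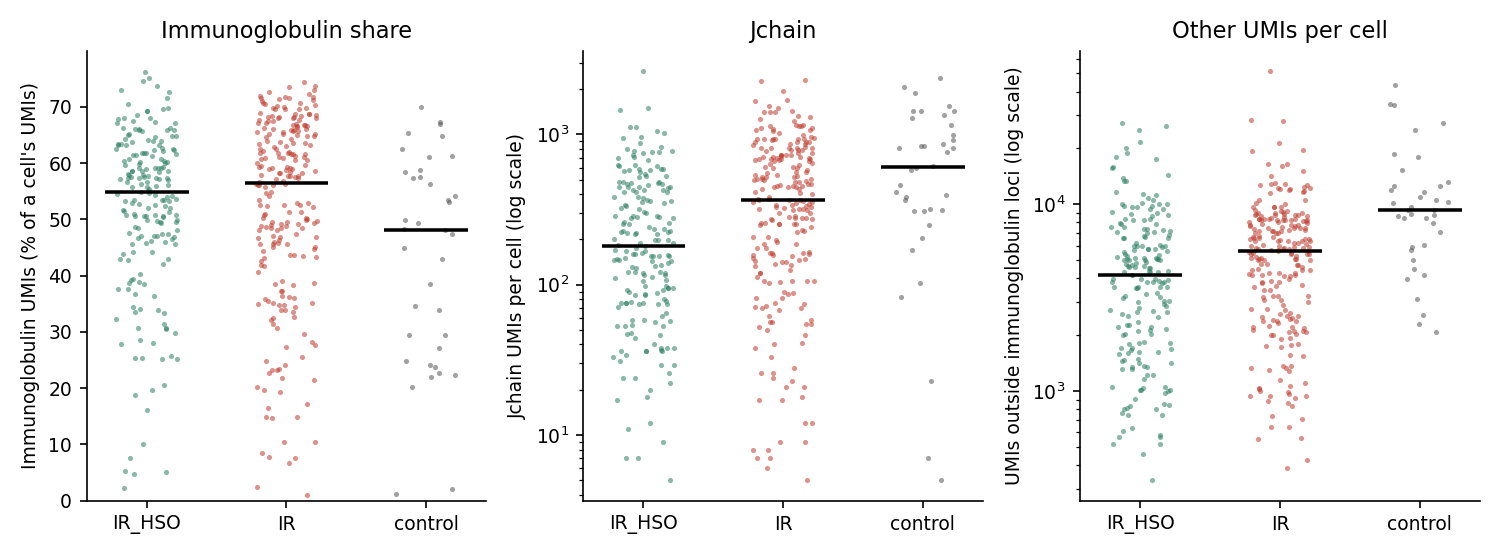
Each point is an IgM plasma cell of the IR_HSO, IR or control library and each black line a median. Immunoglobulin shares overlap between libraries (medians 54.8%, 56.5% and 48.2%), whereas Jchain UMIs (180, 364.5 and 606) and UMIs outside the immunoglobulin genes (4160, 5606 and 9320) have their highest medians in control.

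Kappa light chains dominated in each library. Cells with most light chain UMIs from the lambda genes numbered 19 of 197 in IR_HSO (9.64% [5.91, 14.7]), 33 of 236 in IR (14.0% [9.82, 19.1]) and 1 of 38 in control (2.63% [0.0666, 13.8]). The control interval overlaps both others, so a difference was not detectable at this number of cells. Among the lambda cells Iglc1 led in 9 of IR_HSO and 15 of IR, and Iglc2 in 8 and 13. The remaining 2 and 5 cells, and the lambda cell of the control library, were led by Iglc3.

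The variable genes were read to see how far the IgM plasma cells of a spleen used the same gene pairs. A cell was given a heavy or light variable gene where that gene had at least 3 UMIs and over 50% of the cell's variable UMIs of that chain. A heavy gene could be given in 170 cells of IR_HSO, 191 of IR and 35 of control, and these used 47, 54 and 26 different genes. Both chains could be given in 167, 183 and 35 cells. Most pairs of heavy and light gene were seen in 1 cell. A pair recurred in 2 or more cells 16 times in IR_HSO, 19 times in IR and 1 time in control, covering 51, 60 and 4 cells, and the number of cells compared differs between libraries. Sharing a gene pair does not make cells a clone, because joining sequences were not analysed here.

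The most frequent pair of the IR library, Ighv2-3 with Igkv19-93, was carried by 16 of 183 cells (8.74% [5.08, 13.8]). It was found in 0 of 167 cells of IR_HSO, which allows a share of up to 1.80% by the limit of 3 counts, and in 0 of 35 cells of control, which allows up to 8.57%. The exact intervals reach 2.18% in IR_HSO and 10.003% in control, and the control interval takes in the IR share. Those 16 cells held a median of 22 heavy and 38.5 light variable UMIs, and none of them met the mark used below for dividing cells. The most frequent pair of the IR_HSO library, Ighv7-1 with Igkv15-103, was carried by 12 of 167 cells in IR_HSO (7.19% [3.77, 12.2]), 5 of 183 in IR (2.73% [0.893, 6.26]) and 1 of 35 in control (2.86% [0.0723, 14.9]). Its intervals overlap between the 3 libraries. Ighv3-6 with Igkv4-63 was seen in 6 IR_HSO cells, 0 IR cells and 0 control cells. The recurrent pair of the control library, Ighv1-9 with Igkv3-2, was seen in 0 IR_HSO cells, 0 IR cells and 4 control cells. These 8 variable genes averaged at most 0.00371 UMIs per T cell in any library.

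Pairs known from natural antibodies were also present at low number. Ighv11-2 with Igkv14-126, the pair known in mouse B-1 cells for binding phosphatidylcholine, was seen in 1 IR_HSO cell, 3 IR cells and 1 control cell. Ighv7-1 with Igkv7-33, known from mouse antibodies against phosphorylcholine, was seen in 3, 2 and 0 cells. In class-switched plasma cells 14 pairs recurred in IR_HSO, 2 in IR and 0 in control, among 89, 77 and 20 cells with both chains. The variable exons of the leading pair of each irradiated library, and of the phosphatidylcholine pair, are shown because these are the gene pairs the counts above refer to. They are germline reference sequence of build GRCm38 with the GENCODE M21 annotation, written in the direction of the gene, with capitals marking the stretch from the conserved cysteine codon to the end of the exon, where the third binding loop begins. They are not sequences read from these cells. An exon longer than 300 bases is shown by its last 300. Ighv2-3 lies at chr12:113611187-113611486 (minus strand), Igkv19-93 at chr6:68736297-68736594 (minus), Ighv7-1 at chr12:113896408-113896707 (minus), Igkv15-103 at chr6:68437628-68437925 (plus), Ighv11-2 at chr12:114048241-114048540 (minus) and Igkv14-126 at chr6:67896345-67896642 (plus).
Ighv2-3: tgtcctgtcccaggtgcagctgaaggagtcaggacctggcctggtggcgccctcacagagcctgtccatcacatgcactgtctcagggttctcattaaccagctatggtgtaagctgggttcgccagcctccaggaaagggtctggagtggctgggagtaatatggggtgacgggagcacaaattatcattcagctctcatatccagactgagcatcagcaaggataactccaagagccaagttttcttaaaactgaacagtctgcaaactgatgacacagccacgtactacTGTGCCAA
Igkv19-93: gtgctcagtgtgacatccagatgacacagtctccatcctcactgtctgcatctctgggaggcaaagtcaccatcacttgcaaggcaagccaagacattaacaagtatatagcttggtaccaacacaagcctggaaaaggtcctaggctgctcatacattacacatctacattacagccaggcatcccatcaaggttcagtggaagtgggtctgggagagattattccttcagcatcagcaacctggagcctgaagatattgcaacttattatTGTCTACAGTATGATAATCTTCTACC
Ighv7-1: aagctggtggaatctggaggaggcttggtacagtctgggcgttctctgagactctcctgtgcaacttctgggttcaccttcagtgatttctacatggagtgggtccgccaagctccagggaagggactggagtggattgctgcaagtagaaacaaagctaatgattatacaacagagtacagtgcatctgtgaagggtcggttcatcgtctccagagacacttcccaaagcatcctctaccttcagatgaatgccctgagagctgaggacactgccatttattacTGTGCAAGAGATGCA
Igkv15-103: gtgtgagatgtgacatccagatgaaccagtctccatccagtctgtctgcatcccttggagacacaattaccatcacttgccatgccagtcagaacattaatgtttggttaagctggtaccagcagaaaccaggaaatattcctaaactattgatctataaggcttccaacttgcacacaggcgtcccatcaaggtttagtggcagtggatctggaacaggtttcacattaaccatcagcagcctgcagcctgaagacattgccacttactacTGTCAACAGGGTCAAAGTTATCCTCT
Ighv11-2: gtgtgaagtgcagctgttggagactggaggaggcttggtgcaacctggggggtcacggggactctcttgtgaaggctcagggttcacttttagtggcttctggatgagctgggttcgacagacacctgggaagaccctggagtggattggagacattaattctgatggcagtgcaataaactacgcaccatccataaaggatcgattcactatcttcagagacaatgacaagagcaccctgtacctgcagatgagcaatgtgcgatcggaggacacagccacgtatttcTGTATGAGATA
Igkv14-126: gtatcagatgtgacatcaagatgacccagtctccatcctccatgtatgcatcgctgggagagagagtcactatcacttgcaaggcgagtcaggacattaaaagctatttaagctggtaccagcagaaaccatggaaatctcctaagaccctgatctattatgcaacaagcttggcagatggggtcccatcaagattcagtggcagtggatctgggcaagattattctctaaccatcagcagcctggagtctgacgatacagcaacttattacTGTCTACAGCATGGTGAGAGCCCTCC
The nearest other gene was Ighv2-9 for Ighv2-3 (94.4% identity), Igkv10-94 for Igkv19-93 (78.2%), Ighv7-3 for Ighv7-1 (88.6%) and Igkv11-125 for Igkv15-103 (75.8%). Ighv11-1 matched Ighv11-2 at 98.7%, so reads of these genes may be split and the Ighv11-2 cells are uncertain. Igkv14-111 matched Igkv14-126 at 90.9%.

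**Figure D3:**
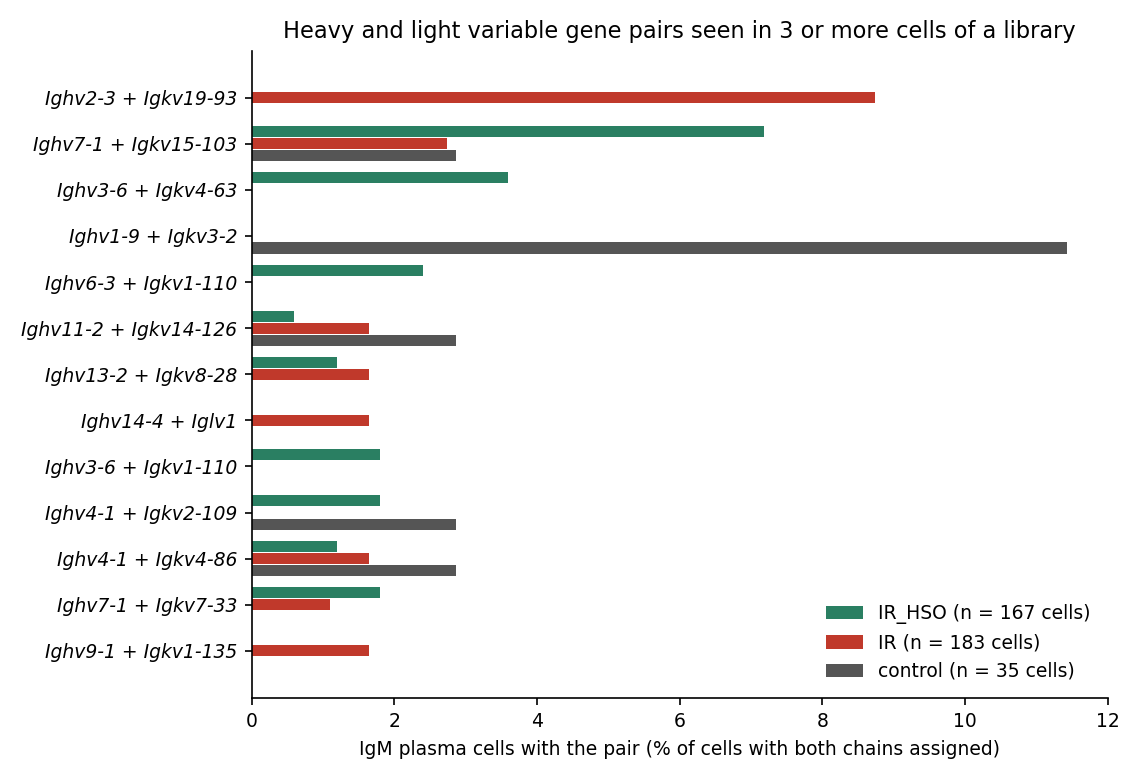
Share of IgM plasma cells carrying each pair of heavy and light variable genes seen in 3 or more cells of a library, as a percentage of the 167 IR_HSO, 183 IR and 35 control cells with both chains assigned. Ighv2-3 with Igkv19-93 was seen in IR cells, at 8.74%, and in no cell of the other libraries, whereas Ighv7-1 with Igkv15-103 was seen in all 3.

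By the number of genes past 2-fold, transcripts outside the immunoglobulin genes differed more between irradiated and control cells than between the irradiated libraries. A gene was compared where it reached 50 CPM in either library, and counted as higher or lower where log2 ratios of CPM + 1 passed 2-fold. For IR_HSO against control, 181 of 3234 genes were higher (5.6%) and 254 lower (7.85%), 13.5% in either direction. For IR against control, 138 of 3189 genes were higher (4.33%) and 147 lower (4.61%), 8.94% in either direction. For IR_HSO against IR, 50 of 3023 genes were higher (1.65%) and 55 lower (1.82%), 3.47% in either direction. Both comparisons against control use the same 38 control cells. These held 450331 UMIs outside the immunoglobulin genes, against 1.04e+06 in IR_HSO and 1.46e+06 in IR. With every cell at equal weight, IR against control gave 137 higher and 124 lower genes, and IR_HSO against IR 67 and 100. How far the unequal depth feeds these counts was not tested. Dividing by all UMIs in place of those outside the immunoglobulin genes gave 49 higher and 262 lower for IR_HSO against control, and 30 higher and 142 lower for IR against control. After centring each comparison on its median gene the counts were 221 higher and 193 lower for IR_HSO against control, and 58 higher and 39 lower for IR_HSO against IR. The median of all genes compared was -0.13 on the log2 scale for IR_HSO against control, -0.067 for IR against control and -0.092 for IR_HSO against IR.

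Targets of p53, the transcription factor that DNA damage activates, were higher in IgM plasma cells of both irradiated spleens. Of 21 targets on the list, 11 could be compared for IR_HSO against control, with 7 higher, 0 lower and a median log2 ratio of 1.53. For IR against control 5 of 10 were higher, 1 was lower and the median was 1.02. For IR_HSO against IR 1 of 12 was higher, 0 were lower and the median was 0.25. Over all genes compared, 5.6%, 4.33% and 1.65% were higher in these 3 comparisons. Cdkn1a, the inhibitor of cyclin-dependent kinases that halts the cell cycle, had 117 CPM in IR_HSO, 109 in IR and 6.66 in control. The counts behind these values were 122, 159 and 3 UMIs, so the ratio of IR to control was 16.3 [5.48, 79.9] and that of IR_HSO to control 17.6 [5.89, 86.6]. IR_HSO and IR did not separate in Cdkn1a, with a ratio of 1.08 [0.847, 1.38].

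Bax, which permeabilizes mitochondria in apoptosis, stood at 424, 369 and 122 CPM in IR_HSO, IR and control, 3.02 times as high in IR as in control [2.28, 4.06]. Bbc3, which encodes the pro-apoptotic protein PUMA, had 56.8, 53.3 and 17.8 CPM. Ccng1, a cyclin that p53 induces, had 213, 158 and 62.2 CPM. All 3 genes lay above control in both irradiated libraries by more than counting error. Phlda3, an inhibitor of Akt signalling, reached 42.3, 58.7 and 2.22 CPM on 44, 86 and 1 UMIs. Zmat3, an RNA-binding p53 target, was the target past 2-fold between the irradiated libraries, at 71.2 CPM in IR_HSO and 31.4 in IR (ratio 2.27 [1.55, 3.35]), with 11.1 in control. Aen, an apoptosis-enhancing nuclease, had 59.6, 40.3 and 19.99 CPM.

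Some p53 targets were high in these cells even without irradiation. Trp53inp1, a p53-induced stress protein, stood at 1129, 859 and 526 CPM in IR_HSO, IR and control, against 255, 219 and 96.4 CPM in T cells. Rps27l, a ribosomal protein paralogue, stood at 803, 651 and 413 CPM, against 159, 196 and 96.9 in T cells. Mdm2, the ubiquitin ligase that restrains p53, ran the other way with 105, 78.5 and 191 CPM, and 73.3% of its control UMIs came from 1 cell. Btg2, which restrains cell growth, did not pass 2-fold at 536, 715 and 762 CPM.

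T cells of the same libraries carried the same targets. Cdkn1a stood at 151, 215 and 1.60 CPM in T cells of IR_HSO, IR and control, and Phlda3 at 80.6, 105 and 1.92. Each cell was thinned to 1000 UMIs outside the immunoglobulin genes, which left out 21 shallower cells in IR_HSO, 18 in IR and 0 in control. Then 11 of 176 IgM plasma cells in IR_HSO held a Cdkn1a UMI (6.25%), 17 of 218 in IR (7.80%) and 0 of 38 in control, which allows up to 7.89%. Before thinning these were 46 of 197, 61 of 236 and 2 of 38 cells. The same thinned share in T cells was 12.1%, 17.0% and 0.135%, so the plasma cell share lies below that of T cells, and how much Cdkn1a RNA the plasma cells made themselves was not tested. For Bax the thinned shares were 31.8%, 29.8% and 13.2% in IgM plasma cells and 31.4%, 38.5% and 10.6% in T cells. In IR the plasma cell share [23.8, 36.4] lay below that of T cells [37.5, 39.6], and in the other libraries the intervals overlapped. Over single cells, the p53 list took a median of 0.346% of UMIs outside the immunoglobulin genes in IR_HSO, 0.307% in IR and 0.211% in control. Without the cells that held 2 or more Cd3 UMIs the list medians were 1.46 for IR_HSO against control and 1.05 for IR against control.

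**Figure D4:**
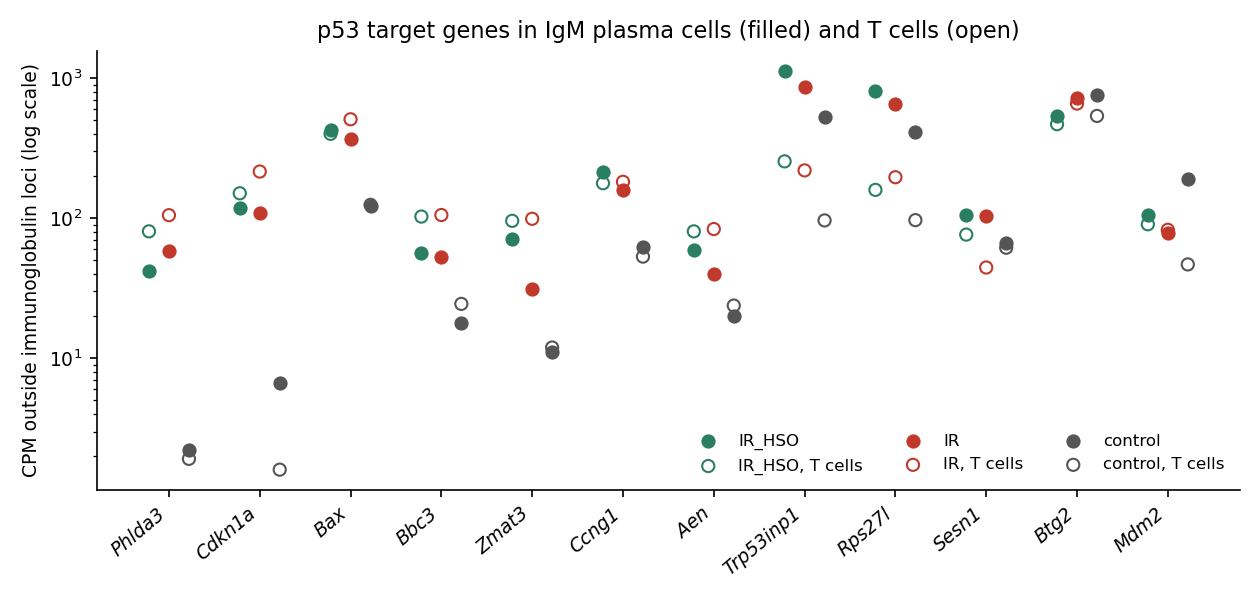
CPM of the 12 p53 targets that reached 50 CPM in a library, on a log axis, in IgM plasma cells (filled) and T cells (open) of the IR_HSO, IR and control libraries. Phlda3 and Cdkn1a lie far above control in both irradiated libraries, while Trp53inp1 and Rps27l are higher in IgM plasma cells than in T cells of every library.

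The list of plasma cell identity holds Jchain, Prdm1, Sdc1 and Tnfrsf17, which the rule used, so its counts and median are a description of the cells chosen. Of 18 regulators and surface genes 17 could be compared, and 2 were higher for IR_HSO against control, 1 for IR against control and 0 for IR_HSO against IR, with none lower. The shares higher over all genes were 5.6%, 4.33% and 1.65%. The list median was 0.11, 0.05 and 0.26 in these comparisons, and for both comparisons against control it took either sign across the alternatives tried. Prdm1, which encodes the repressor Blimp-1 that fixes plasma cell fate, had 315 CPM in IR_HSO, 195 in IR and 184 in control. Irf4, a factor that plasma cells need to survive, had 289, 180 and 158 CPM. For Irf4, which the rule did not use, IR_HSO exceeded IR by more than counting error, with a ratio of 1.61 [1.36, 1.90], short of 2-fold. Prdm1 was a gene of the rule, so its ratio of 1.62 [1.38, 1.90] is a description of the cells chosen. Sdc1, the surface proteoglycan CD138, had 180, 202 and 231 CPM and Tnfrsf17, the APRIL and BAFF receptor BCMA, 245, 278 and 269. Ly6c2, a surface protein found on plasma cells, stood at 2296, 1583 and 713 CPM, against 180, 199 and 207 in T cells, and it was higher than control in both irradiated libraries. Ly6k, a relative of Ly6c2, had 371, 205 and 111 CPM, with 74.0% of the control UMIs in 1 cell.

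Genes of plasma cell survival, among them the rule gene Tnfrsf17, gave 2 of 12 higher for IR_HSO against control and 3 of 13 for IR against control. Of all genes compared, 5.6% and 4.33% were higher in these comparisons. Bcl2, the founding anti-apoptotic gene, had 426 CPM in IR_HSO, 388 in IR and 178 in control, while T cells of the same libraries had 1296, 1214 and 239 CPM. Birc3, an inhibitor of apoptosis, had 109, 92.8 and 42.2 CPM. Mcl1, on which plasma cells depend for survival, was not past 2-fold at 664, 781 and 786 CPM. Bcl2a1b was higher in IR, on 26 UMIs in IR_HSO, 93 in IR and 14 in control, and its sequence is close to that of other Bcl2a1 genes, so its counts are uncertain. Among 15 pro-apoptotic genes 3 could be compared for IR_HSO against control and 4 for IR against control, and Bax and Bbc3 were the ones higher in each. Homing and adhesion genes gave 0 of 8 past 2-fold in any comparison. Cxcr4, the receptor that guides plasma cells to bone marrow, had 58.7, 84.7 and 118 CPM.

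Some genes of ER folding were lower in IR_HSO than in control, and most were not past 2-fold. All 24 chaperone and folding genes could be compared. For IR_HSO against control 4 were lower and 0 higher, with a median log2 ratio of -0.71, where 7.85% of all genes compared were lower. For IR against control 1 was lower with a median of -0.40, where 4.61% of all genes were lower, and for IR_HSO against IR 0 passed 2-fold with a median of -0.28. Txndc5, on this list, was a gene of the rule. Hspa5, the chaperone BiP that binds unassembled heavy chains, stood at 1888 CPM in IR_HSO, 2751 in IR and 3533 in control. Hsp90b1, the ER form of Hsp90, stood at 3215, 4191 and 7352 CPM, a ratio of IR_HSO to control of 0.437 [0.417, 0.459]. Calr, the lectin chaperone calreticulin, had 894, 1331 and 2427 CPM. Pdia6, a disulfide isomerase, had 569, 726 and 1563 CPM and was lower in both irradiated libraries. Over single cells the list took a median of 1.53%, 2.05% and 2.57% of UMIs, with wide and overlapping ranges (0.248% to 8.14%, 0.348% to 7.90% and 0.354% to 7.32%). In control 5 of 38 cells held 48.2% of the list's UMIs. The top 5 cells held 16.4% among 197 in IR_HSO and 9.94% among 236 in IR. The list medians of the 3 comparisons lay below 0 in all 16 alternatives tried.

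The other lists of the secretory route held at most 2 genes past 2-fold in a comparison. Of all genes compared, 7.85% were lower and 5.6% higher for IR_HSO against control. For IR against control these shares were 4.61% and 4.33%. Translocation and signal peptide genes gave 0 of 22 higher and 1 lower in either comparison against control. That gene was Ssr2, a subunit of the translocon-associated complex, for IR_HSO against control, and Sec61g, a subunit of the translocon, for IR against control. Sec61g had 168 CPM in IR_HSO, 49.2 in IR and 153 in control, and T cells had 68.0, 23.2 and 41.6 CPM. N-glycosylation gave 2 of 13 lower for IR_HSO against control, Rpn1 and Ostc, both subunits of oligosaccharyltransferase. ER-associated degradation gave 2 of 15 lower in that comparison, Derl2 and Hsp90b1, and its member Derl3 was a gene of the rule. Genes of ER to Golgi transport gave 0 of 20 past 2-fold against control in either irradiated library. The PERK and ATF4 branch of the stress response gave 2 of 9 higher and 0 lower for IR_HSO against control, and 1 of 7 each way for IR against control, Ddit3 higher and Psat1, a serine synthesis enzyme, lower. Ddit3, which encodes CHOP, had 54.8 CPM in IR_HSO, 98.3 in IR and 42.2 in control. Ppp1r15a, which lets translation resume after stress, had 109, 221 and 167 CPM and was 0.493 times as high in IR_HSO as in IR [0.394, 0.613]. Asns, the asparagine synthetase that ATF4 induces, had 51.0, 49.8 and 19.99 CPM, with at most 0.860 CPM in T cells.

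Residual B cell genes were lower in the irradiated libraries. Of 9 genes of the B cell program compared, 6 were lower for IR_HSO against control (median log2 ratio -1.48) and 4 for IR against control (median -0.91), and none was higher. The shares lower over all genes were 7.85% and 4.61%. Ms4a1, which encodes CD20, had 57.7 CPM in IR_HSO, 102 in IR and 286 in control. After thinning, it was found in 5.11% [2.36, 9.49], 13.3% [9.09, 18.5] and 15.8% [6.02, 31.3] of IgM plasma cells. The control interval of this share overlaps those of both irradiated libraries. Ebf1, a factor of early B cell identity, had 41.4, 40.3 and 142 CPM. The low-affinity IgE receptor Fcer2a had 0, 1 and 24 UMIs. T cells, which should lack these genes, showed the same order, with 1.26, 4.84 and 82.8 CPM of Ms4a1. Cd79a, a signalling chain of the B cell receptor that plasma cells retain, was not past 2-fold at 672, 784 and 913 CPM, against 3.44, 9.46 and 188 CPM in T cells.

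MHC class II genes, through which B cells present antigen, followed the same order. Of 7 compared, 5 were lower for IR_HSO against control (median -1.93) and 5 for IR against control (median -1.39). For IR_HSO against IR 1 of 5 was lower, with a median of -0.66. The shares lower over all genes were 7.85%, 4.61% and 1.82% in these comparisons. H2-Aa stood at 67.3 CPM in IR_HSO, 143 in IR and 673 in control, H2-Ab1 at 208, 301 and 793, and H2-Eb1 at 96.2, 177 and 542. The same genes in T cells stood at 24.9, 38.0 and 479 CPM for H2-Aa and 18.8, 37.9 and 410 for H2-Ab1. T cells should lack these genes too, and the part of free RNA in the difference was not tested. Cd74, the invariant chain, kept 4081, 5144 and 5707 CPM, against 92.2, 128 and 1239 in T cells, and did not pass 2-fold. MHC class I genes gave 1 of 13 higher for IR_HSO against control (5.6% of all genes) and 0 of 12 for IR against control (4.33%). The gene was Nlrc5, the class I transactivator, at 52.9, 28.0 and 13.3 CPM. B2m, the class I light chain, had 8012, 8034 and 4954 CPM.

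Dividing cells were few in number but held most of the UMIs of proliferation genes in control. Of 18 proliferation genes, 17 were lower for IR_HSO against control (7.85% of all genes) and 13 for IR against control (4.61%). The medians were -2.39 and -1.71. For IR_HSO against IR 1 of 8 was higher (1.65% of all genes), Ube2c, and 3 were lower (1.82%), Stmn1, Cenpf and Hmgb2. Mki67, which encodes the proliferation antigen Ki-67, had 192 CPM in IR_HSO, 150 in IR and 782 in control. Top2a, the topoisomerase of dividing cells, had 48.1, 87.4 and 380 CPM. These differences rested on a handful of cells, as 5 cells held 91.4% of the list's UMIs in control, against 52.4% in IR_HSO and 51.1% in IR. Cells with 2 or more Mki67 and Top2a UMIs numbered 18 of 197 in IR_HSO (9.14% [5.51, 14.1]), 17 of 236 in IR (7.20% [4.25, 11.3]) and 9 of 38 in control (23.7% [11.4, 40.2]). The median cell hardly differed, with 0.0410%, 0.0483% and 0.0471% of its UMIs on the list. After thinning, Mki67 or Top2a was found in 7.95%, 5.50% and 18.4% of IgM plasma cells (14 of 176, 12 of 218 and 7 of 38), against 3.57%, 6.22% and 2.67% of T cells. Without the cells at 2 or more Mki67 and Top2a UMIs, the list median was -0.29 for IR_HSO against control and 0.074 for IR against control. Without them 96 of the 254 lower genes for IR_HSO against control, and 44 of the 147 for IR against control, were still past 2-fold lower.

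Histone genes made during DNA replication were among the genes furthest below control. H2ac24 had 50.5 CPM in IR and 975 in control, and H1f5, a linker histone, 92.2 and 1064. H2ac8 had 46.4 and 722 CPM, H2ac4 6.14 and 109, and H3c3 8.19 and 155. Rrm2, a subunit of ribonucleotide reductase, had 12.3 and 133 CPM. For IR_HSO against control the genes furthest below were H2ac4 on 1 and 49 UMIs, H2bc3 on 2 and 28, Esco2, a cohesin acetyltransferase, on 3 and 24, and Pclaf, a PCNA-associated factor, on 10 and 181. Siglecg, an inhibitory receptor of B-1 and other B cells, had 1 and 31 UMIs. Histone genes of a cluster are near-identical in places and their counts are uncertain. Apart from Siglecg, these values rested largely on the dividing cells, though H2ac24 (IR) and H2ac4 (IR_HSO) stayed past 2-fold lower without them. Without them the log2 ratios for IR against control were 0.85 for H3c3, -0.085 for H1f5, -0.37 for H2ac4, -0.68 for Rrm2, -0.90 for H2ac8 and -2.52 for H2ac24. For IR_HSO against control they were 2.17 for Pclaf, 1.12 for H3c3, 0 for Esco2, -0.71 for H2bc3, -2.45 for H2ac4 and -6.18 for Siglecg. With the dividing cells Siglecg had a log2 ratio of -5.15.

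**Figure D5:**
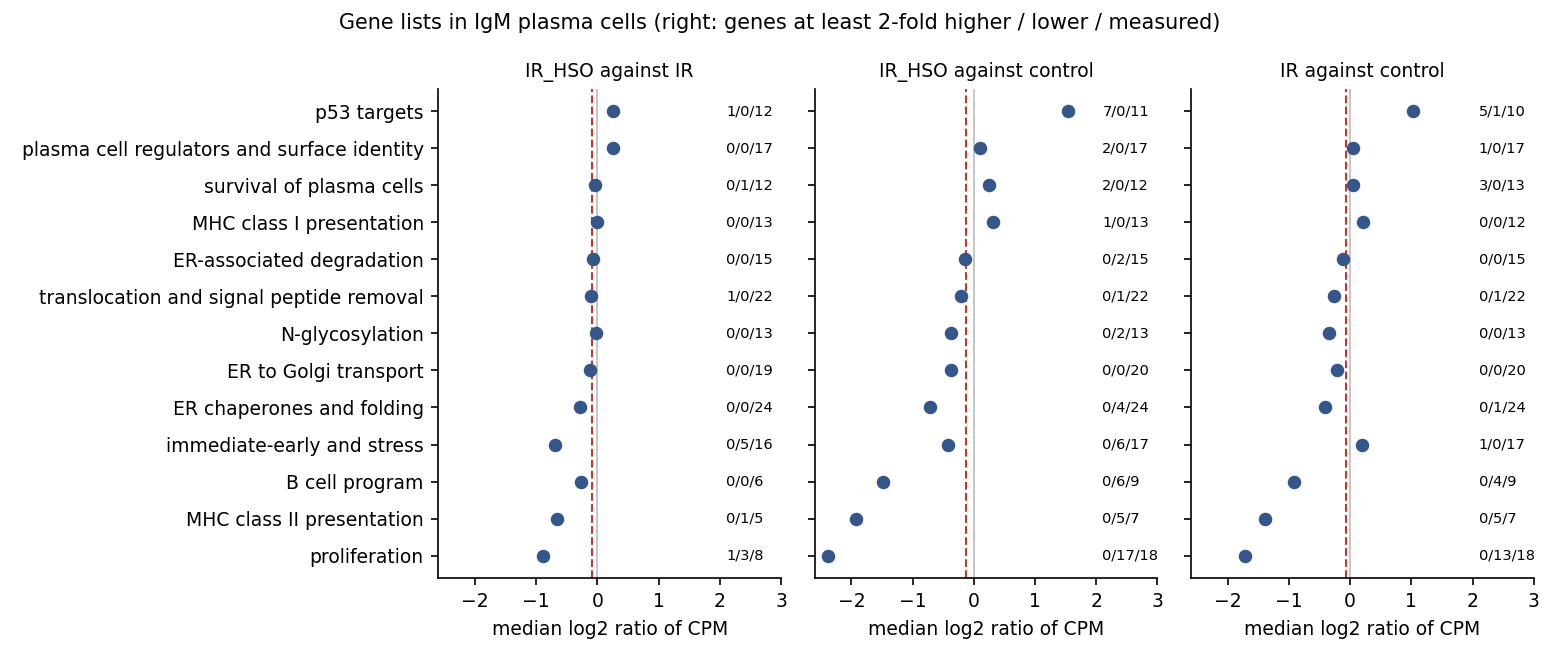
Median log2 ratio of CPM + 1 over each of 13 gene lists in IgM plasma cells, for IR_HSO against IR, IR_HSO against control and IR against control, with the median over all genes compared as a dashed line. Numbers at the right of each panel count genes at least 2-fold higher, lower and compared. Of the 13 lists drawn, p53 targets have the highest median in both comparisons against control, and proliferation, MHC class II and B cell genes the lowest. Of the lists not drawn, the pro-apoptotic one had a higher median for IR_HSO against control (1.62, 3 genes) and DNA repair a lower one than B cell genes for IR against control (-0.918 and -0.912).

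Between the irradiated libraries, immediate-early and heat shock genes were lower in IR_HSO. Of 16 compared, 5 were past 2-fold lower (1.82% of all genes), 0 higher, and all 16 lay below 0, with a median log2 ratio of -0.69. Hspa1a, an inducible Hsp70, had 26.9 CPM in IR_HSO and 198 in IR (ratio 0.136 [0.0888, 0.201]), with 171 in control. Hspa1b had 57.7, 171 and 151 CPM in IR_HSO, IR and control, and these 2 genes are near-identical, so their counts may be split. Hsp90aa1, the inducible cytosolic Hsp90, had 218, 500 and 522 CPM. Jun, an immediate-early transcription factor, had 2191, 4472 and 4086 CPM, and Fos, its partner, 1567, 2598 and 1814. T cells differed in the same direction, with 72.5, 171 and 175 CPM of Hspa1a, 304, 692 and 631 of Hsp90aa1 and 466, 973 and 818 of Jun. For IR against control the list gave 1 of 17 higher (4.33% of all genes), Junb, at 1253 CPM in IR and 582 in control.

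The genes furthest above IR in IR_HSO included several that differed in T cells as well. Rn18s-rs5, a ribosomal RNA repeat, had 52651 CPM in IR_HSO and 10781 in IR, against 47005 and 11188 in T cells. Mir6236, which lies in ribosomal RNA sequence, had 1748 and 252 CPM, against 1628 and 229 in T cells. The mitochondrial gene mt-Nd3 had 253 and 47.8 CPM, against 215 and 44.6 in T cells. Gm10076 and Wdr89 were also among them, at 2854 and 455 CPM and 254 and 52.6 CPM. Gstp1, a glutathione transferase, had 111 and 24.6 CPM, against 147 and 39.1 in T cells. Stard5, a sterol-binding protein, had 91.4 and 25.9 CPM in IgM plasma cells and 18.0 and 11.3 in T cells. Among genes lower in IR_HSO were Tuba1b, an alpha tubulin, at 18.3 and 113 CPM, Hsph1, a heat shock protein, at 27.9 and 99.7, Tmx4, an ER thioredoxin, at 36.6 and 134, and Apoe, an apolipoprotein, at 44.3 and 178. The ribosomal pseudogenes Rps10-ps1 and Rps23-ps1 and the unnamed gene ENSMUSG00000120586 were also lower, and pseudogene counts are uncertain.

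Pancreatic enzyme transcripts were among the genes furthest above control in both irradiated libraries, in each case against 0 control UMIs. All 12 pancreatic acinar markers had UMIs in IgM plasma cells of IR_HSO and IR and none in control, summing to 506, 656 and 0 CPM. Ctrb1, which encodes chymotrypsinogen, had 186 UMIs in IR_HSO, 312 in IR and 0 in control, at least 26.9-fold higher in IR_HSO and 32.0-fold in IR than the 3 counts that a count of 0 allows in control. T cells of the same libraries held more, with 891, 2407 and 2.41 CPM of the list. Try5, Prss2, Reg2 and Reg3b, all made by the exocrine pancreas, were named by the same rule. Red cell transcripts ran the other way, with 1, 0 and 36 UMIs of the globin gene Hbb-bs in IgM plasma cells and 0.421, 0.297 and 271 CPM in T cells.

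Serpina3f and Zcwpw1 were higher in IgM plasma cells than in T cells of both irradiated libraries, and Mt2 was higher in those of IR. Serpina3f, a serine protease inhibitor, had 289 CPM in IR_HSO, 180 in IR and 2.22 in control, from 300, 264 and 1 UMIs, against 58.5, 37.4 and 1.83 CPM in T cells. Zcwpw1, a reader of histone methylation known from mouse meiosis, had 79.8, 63.5 and 2.22 CPM, against 8.003, 13.7 and 9.63 in T cells. For Zcwpw1, 1 cell held 20.5% of the UMIs in IR_HSO and 1 cell 24.7% in IR. Mt2, a metallothionein, had 55.3 CPM in IR and 2.22 in control, with 30.9% of the IR UMIs in 1 cell, against 31.3 and 0.713 CPM in T cells. Socs3, a suppressor of cytokine signalling, had 56 UMIs in IR_HSO and 0 in control, at least 8.09-fold higher, and T cells held more, 131 CPM in IR_HSO and 35.3 in control.

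The remaining lists held few genes past 2-fold. Of all genes compared, 5.6% were higher and 7.85% lower for IR_HSO against control. For IR against control these shares were 4.33% and 4.61%. Interferon response genes gave 1 of 7 higher for IR_HSO against control, Zbp1, a sensor of Z-form nucleic acid, at 311 CPM in IR_HSO, 174 in IR and 99.9 in control. Genes of DNA damage sensing and repair were mostly too low, and of 3 compared 2 were lower for IR_HSO against control and 1 for IR against control. H2ax, the histone variant that marks breaks, had 18.3, 38.9 and 204 CPM and was lower in both, and Parp1, a sensor of breaks, had 68.3, 85.3 and 162. The part of the dividing cells in the H2ax values was not tested. For IR against control the median of the repair list ran from -2.19 to 0.199 across the 16 alternatives tried. Oxidative phosphorylation gave 0 of 24 past 2-fold in each comparison. Fatty acid uptake and oxidation gave 0 of 5, and antioxidant genes 0 of 9 or 10. Genes of fatty acid and sterol synthesis gave 1 higher and 1 lower of 2 compared, in either comparison against control. Scd2, a fatty acid desaturase, was the higher gene in both, at 174, 108 and 53.3 CPM in IR_HSO, IR and control.

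IgM and class-switched plasma cells of the same library differed in a short list of genes. Among 2465 genes at 50 CPM in either set in all 3 libraries, 5 were past 2-fold higher in IgM cells in each library (0.203%) and 7 lower (0.284%). Ccr10, the chemokine receptor of IgA-secreting cells, had 7.70 CPM in IgM against 161 in class-switched cells of IR_HSO, 12.3 against 205 in IR, and 4.44 against 110 in control. Tmem176b, a membrane protein, had 448 against 1375, 380 against 1334, and 109 against 281 CPM. Bst2, the tetherin gene, had 276 against 652, 284 against 726, and 304 against 615 CPM. Tmem176a, Pycard, Glipr1 and Selenom were the other genes lower in IgM cells.

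Ggh, a folate-processing hydrolase, was higher in IgM cells, with 177 against 35.4 CPM in IR_HSO, 206 against 28.1 in IR and 127 against 23.7 in control. Egr1, an immediate-early factor, had 356 against 84.9, 599 against 180, and 358 against 52.6 CPM. Selenop, a selenium carrier, had 165 against 49.5, 221 against 69.0, and 97.7 against 34.2 CPM. Sesn1, a p53 target, had 105 against 35.4, 104 against 32.4, and 66.6 against 23.7 CPM. Gpr18 was the remaining gene. Class-switched cells had 86.3, 151 and 0 CPM of Cdkn1a in IR_HSO, IR and control, and whether the p53 response differs between the classes was not tested.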

How the data were processed

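The 3 libraries are droplet single-cell RNA-seq of mouse spleen, with 1 library per group. Per the file headers, version 7.0.1 of Cell Ranger made the UMI counts per gene and barcode that the authors deposited. Build GRCm39 stands in the submitters' processing notes. Cell selection followed the thresholds given above. UMI counts were summed over the cells of a library and scaled to CPM (per 1000000 UMIs) outside the immunoglobulin loci, and ratios used a pseudocount of 1 CPM. Genes were compared at 50 CPM or more in either library and called at 2-fold. Genes named were the 8 furthest each way that had UMIs in at least 10% of cells of the higher library and a counting interval leaving out 1, besides list genes past 2-fold or leading their list. Other list genes given here were chosen after their values were seen, and a few genes that the rule names are not reported here. Ratios have exact conditional intervals and shares Clopper-Pearson intervals (scipy 1.17.1), all at 95% and for counting error only. Doublets were scored with Scrublet (scanpy 1.11.5) and kept. Functions were tested on simulated data. The cells and gene lists were chosen with earlier results of these data known.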

Additional observations from a re-analysis of the deposited data

How the results depend on the processing

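No paired analysis was possible because each group holds 1 library. Of 27 shares recomputed 23 stayed within their interval, of 102 gene counts 71 stayed within 1.5 times, and of 1053 list medians and 766 gene ratios 61 and 52 moved and 2 and 4 reversed. Requiring 3 of the 5 genes gave shares of 1.32% in IR_HSO and 1.45% in IR, and leaving out cells with 2 or more Cd3 UMIs gave 1.5% and 1.39%. The doublet scores left out 9 IgM plasma cells of IR_HSO, 19 of IR and 1 of control, and Scrublet's own threshold called 0 barcodes in IR_HSO, so its calls were not used.

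Gene counts depended on the minimum level, the fold and the totals. For IR_HSO against control, higher genes numbered 498 at 20 CPM, 78 at 100 CPM, 2698 with no minimum, 398 at 1.5-fold and 49 over all UMIs, and lower genes 579, 116, 2175 and 666 in the first 4 of these. For IR against control, higher genes numbered 393, 54, 2927, 335 and 30 in the same 5 settings, and lower genes 389, 55, 1796 and 428 in the first 4, with 285 without the Cd3-positive cells. For IR_HSO against IR, higher genes numbered 133, 32, 1233, 167 and 30 and lower genes 156, 28, 1496, 259 and 23, with 80 higher without the Cd3-positive cells and 100 lower when every cell had equal weight. Without the Cd3-positive cells 77 of the 138 higher genes for IR against control were shared.

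Over all UMIs the median of all genes moved to -0.45 for IR_HSO against control, -0.39 for IR against control and -0.073 for IR_HSO against IR, and the p53 medians to 0.84 and 0.41 in the first 2. Without dividing cells, a setting chosen after seeing the data, the proliferation median was 0.074 for IR against control, H3c3 had log2 ratios of 0.85 (IR) and 1.12 (IR_HSO), and Pclaf 2.17 and Esco2 0 (IR_HSO against control), and 44 of the 147 lower genes for IR against control were shared. The pro-apoptotic median for IR_HSO against control was -0.22 at 20 CPM, where more genes were compared. The 38 control cells, and 1 to 10 UMIs behind several low values, limit the precision.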
